A study of Drosophila melanogaster with 6 samples.

Results

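The 10 genes described here belong to the epidermal growth factor receptor (EGFR) pathway and were examined in intestinal stem cells (ISCs) of the adult Drosophila midgut. They were the ligand genes vn, spi and Krn, the ligand-processing protease gene rho, the receptor gene Egfr, the inhibitor genes aos, sty and kek1, and the transcription factor genes pnt and cic. They were chosen by name from the 8470 genes of the deposited table of normalized counts, with earlier results of the same contrast in view, so the difference between the groups is described for them and not tested. There were 3 control libraries (numbered 1, 2 and 3) and 3 NF-YA RNAi libraries (2, 4 and 5, called RNAi libraries here), all from female flies. Every fly carried esg-Gal4ts, UAS-2xYFP and Su(H)GBE-Gal80, a combination called ISC-Gal4, which is temperature-sensitive and in which Gal80 keeps the driver off in enteroblasts, the precursors of enterocytes. In the NF-YA RNAi group this driver expressed the hairpin of VDRC line 106132. The control group carried Oregon R chromosomes in its place, so the strain and the RNAi cannot be told apart. After eclosion, according to the sample labels, the flies spent 3 days at 18 °C, 3 days at 29 °C to induce the driver and 3 days on holidic food, which is chemically defined, and age is not given otherwise, whereas the study's methods give 3 days on the holidic diet at 29 °C. YFP-positive cells were sorted from dissociated midguts, and the number of flies behind a sample is not given in the sources used here.

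EGFR is a receptor tyrosine kinase that signals through Ras and a kinase cascade ending in the MAP kinase rl. In the fly midgut the pathway is known for driving ISC division and growth, with vn supplied by visceral muscle and spi and Krn supplied within the epithelium. The membrane-tethered ligands Spi and Krn must be cleaved by Rhomboid proteases before release, whereas Vn is made as a secreted protein. Several inhibitors, among them aos and sty, are themselves induced by the pathway in other fly tissues and so are often read as its targets. The ETS factor Pnt activates targets of the pathway, and the repressor Cic is inactivated by it.

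The estimated counts summed to between 77092609 and 122269943 per library. Nf-YA, the gene targeted by the RNAi, had 1690, 2054 and 2482 normalized counts in the control libraries and 377, 518 and 456 in the RNAi libraries. It fell by 2.21 on the log2 scale (SE 0.20), while Nf-YB and Nf-YC did not pass the test at an adjusted p of 0.05 in edgeR's quasi-likelihood test. The progenitor markers esg and Dl (Delta in the annotation) were detected in all 6 libraries, at 173 to 309 and 5.86 to 11.2 CPM, which are counts scaled to library size. esg was lower after NF-YA RNAi, with a log2 fold change of −0.62 (adjusted p = 0.0071, edgeR), and Dl did not pass, at −0.32. All 8 progenitor markers listed had a negative log2 fold change, with a median of −0.45, and 3 of them passed. The 5 enteroblast markers summed to 1774 to 2060 CPM in control libraries and 1776 to 1957 CPM in RNAi libraries, and 1 of them rose. The 18 enterocyte markers summed to 2085 to 5756 CPM in control libraries and 368 to 1564 CPM in RNAi libraries, with control library 1 the highest, and 7 of them fell. The 12 enteroendocrine markers summed to 1856 to 2379 CPM and 526 to 1219 CPM, and 6 of them fell. In RNA from a sorted population, fewer cells of a type and less RNA per cell cannot be told apart.

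After NF-YA RNAi, the ligand gene vn was 13.9-fold higher, while the receptor gene Egfr, the inhibitor genes aos and sty and the repressor gene cic were lower. The other ligand genes spi and Krn, and rho, kek1 and pnt, did not pass the threshold. In all, 1 member was called higher and 4 lower, where called means an adjusted p under 0.05 in the fit over 9080 genes. Of all genes tested, 6.19% were called higher and 8.02% lower (14.2% in either direction), and since the members were chosen on this contrast nothing is read from their count. For 6 of the 10 members the normalized counts of the groups were fully separate, against 36.6% of the 8470 genes of the deposited table. The median log2 fold change was −0.32 over the members and −0.02 over all genes tested. Calls over all genes were 562 higher and 728 lower, and 784 higher and 541 lower when libraries were scaled by their size only. The total of 1290 calls dropped to 588 and 658 when control library 1 or 2 was left out, and to 506 and 527 when RNAi library 4 or 5 was. The number of members called was 3 without RNAi library 4.

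**Figure D1:**
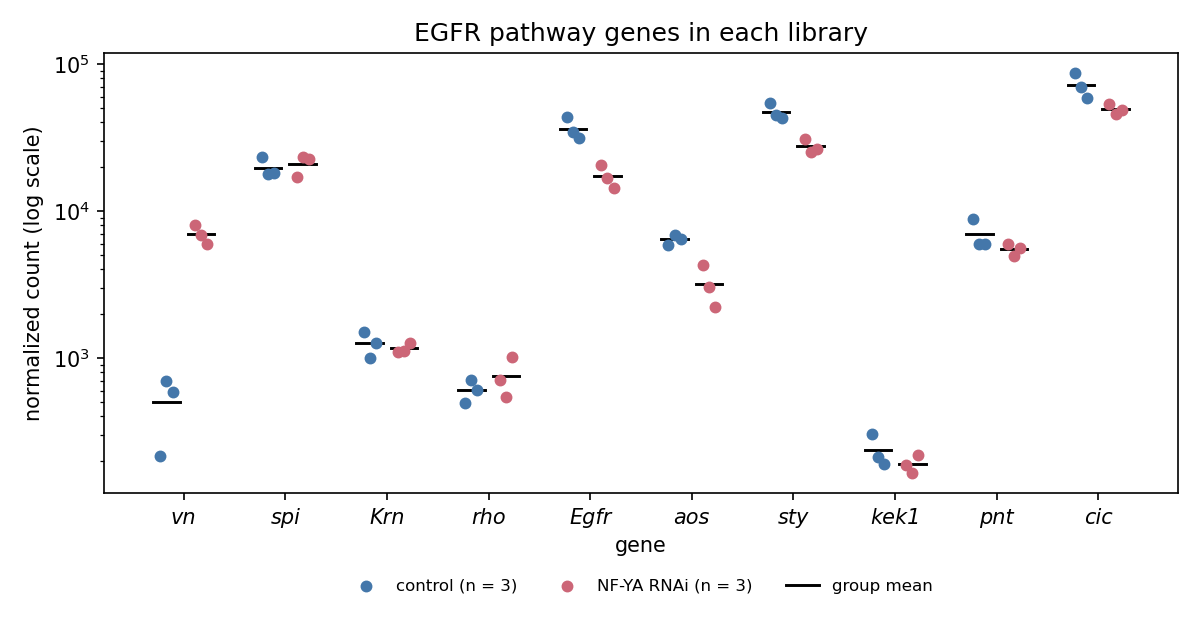
Normalized count on a log scale (y axis) of each member (x axis) in 3 control libraries (blue) and 3 RNAi libraries (red), with the group mean as a bar. The RNAi points of vn, between 5922 and 8037, all sit above its control points, between 214 and 692, whereas those of Egfr, aos, sty, pnt and cic sit below.

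The ligand gene vn (vein, FBgn0003984, a neuregulin-like ligand) lies on chromosome 3L at 5813338 to 5845664 on the minus strand of BDGP6.54. It had 214, 692 and 588 normalized counts in control libraries 1, 2 and 3. In RNAi libraries 2, 4 and 5 it had 8037, 6829 and 5922. Every RNAi library was thus far above every control library, and the lowest value of all was that of control library 1. The mean was 498 ± 251 (SD, n = 3) in controls and 6929 ± 1061 (SD, n = 3) after NF-YA RNAi, a ratio of 13.9. The fitted log2 fold change was 3.83 (SE 0.38), the 20th highest of the 562 genes called higher, and it stayed between 3.45 and 4.12 when any single library was left out.

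Vn is known in the midgut as a product of visceral muscle, and no listed marker of that tissue was called higher after NF-YA RNAi. Which cells the vn reads came from was not tested. Of 17 visceral muscle markers, all 17 had a negative log2 fold change and 1 passed the test, sls, a titin-like muscle protein, at −0.86 (adjusted p = 0.040, edgeR). The defining marker Mhc, the muscle myosin heavy chain, was at 10.8, 1.60 and 0.87 CPM in control libraries and 2.26, 0.65 and 0.69 CPM in RNAi libraries. The summed level of the list was 546 to 656 CPM in controls and 514 to 567 CPM after NF-YA RNAi. Most of this sum came from Tm1, a tropomyosin with many forms, at 458 to 537 CPM in all 6 libraries, followed by the muscle transcription factor Mef2 at 45.3 to 70.9 CPM. Without Tm1 the list summed to 64.4 to 118 CPM in controls and 55.3 to 64.8 CPM after NF-YA RNAi. Markers of other cell types outside the epithelium were mixed. The tracheal marker btl fell by 0.53 on the log2 scale (adjusted p = 0.028, edgeR), the neuronal marker elav had a value of −0.25 and did not pass, and the hemocyte marker Hml was at or below 0.55 CPM. Among the other tracheal markers, serp went the other way at 0.88 and verm had −0.68. Neither passed, and trh was not tested. Of the remaining hemocyte markers Sr-CI, a scavenger receptor gene, rose to at most 4.76 CPM, with a log2 fold change of 1.58 (adjusted p = 0.047, edgeR), and Ppn, a matrix protein gene, fell by 2.17 on the log2 scale (adjusted p = 0.017, edgeR). The fat body marker Lsp2 had no counts in any library, which allows up to 0.038 CPM in the shallowest of them (3 counts, counting error only).

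The annotation holds a pair of vn transcripts that start at the same base and differ at their 3′ ends, vn-RC and vn-RA, which encode 618 and 623 amino acids. vn-RC took 93.7%, 72.7% and 48.9% of the gene's estimated counts in control libraries 1, 2 and 3. In RNAi libraries 2, 4 and 5 it took 69.4%, 46.8% and 42.9%. These shares overlapped between the groups and were spread widely within each. vn-RA had only 12.4 estimated counts in control library 1. In CPM both transcripts were higher in every RNAi library than in any control library. vn-RC had 3.09 ± 1.48 CPM in controls and 36.2 ± 14.1 CPM after NF-YA RNAi, and vn-RA had 1.61 ± 1.42 CPM and 30.7 ± 6.82 CPM (SD, n = 3 each).

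No gene next to vn showed a change of that size. Genes around vn were examined after its values were seen. The nearest gene on the downstream side, mad2, a spindle checkpoint gene 244 bases from the end of vn, had a log2 fold change of 0.46 (SE 0.50) and did not pass. Neither did kri or S6k beyond it, with log2 fold changes of 0.16 and −0.09. On the upstream side the nearest gene tested, PolE2, starts 51.8 kb away and had a value of 0.73 (SE 0.31), which did not pass. Within 60 kb of either side of vn, 17 other genes were tested. Of these, 3 rose and 1 fell, where 6.19% of all genes tested rose and 8.02% fell. The called values lay between −0.35 (Usp47) and 0.51 (vito).

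**Figure D2:**
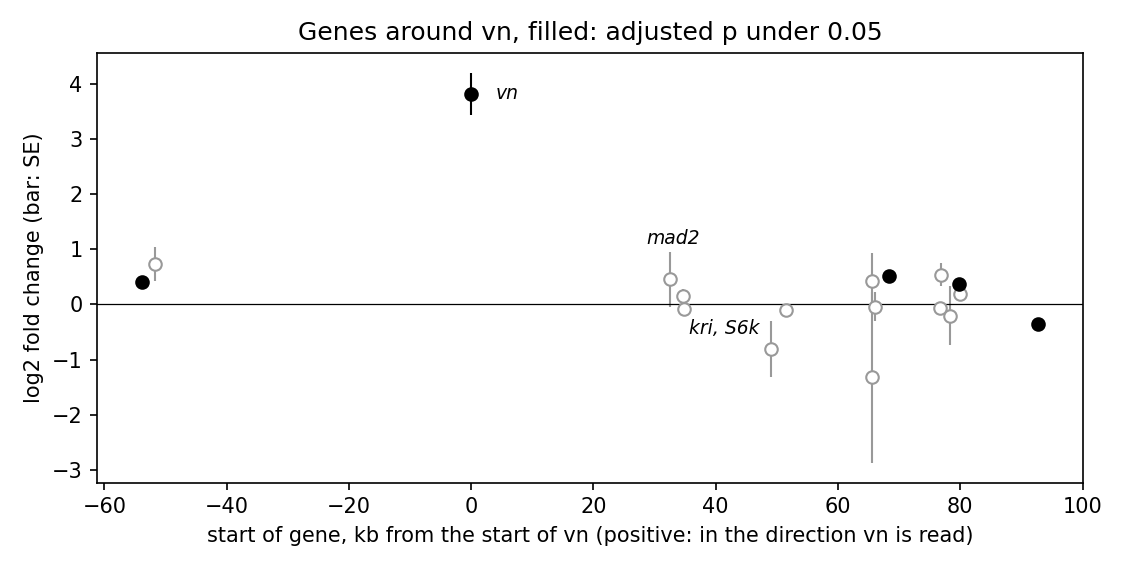
Log2 fold change of NF-YA RNAi against control (y axis, bar: SE of the fit) of vn and of 17 genes within 60 kb of it, by the distance of each gene's start from the start of vn in kb (x axis, positive in the direction vn is read). Filled points passed an adjusted p of 0.05, and all points other than vn lie below 1.

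Neither of the other ligand genes differed beyond the spread between libraries. spi (spitz, FBgn0005672, chromosome 2L, 19567900 to 19577315, minus strand), which encodes a TGF-alpha-like ligand, had 23165, 17772 and 18044 normalized counts in control libraries. It had 16953, 23380 and 22512 in RNAi libraries, where library 2 was the lowest of all 6 and library 4 the highest. Its log2 fold change was 0.08 (SE 0.15). Krn (Keren, FBgn0052179, chromosome 3L, 17649562 to 17654280, minus strand), a close relative of spi, had 1491, 1002 and 1273 normalized counts in controls and 1103, 1109 and 1270 after NF-YA RNAi. The RNAi values of Krn all fell inside the control range, with a log2 fold change of −0.12 (SE 0.17). Krn shares 289 of its 1354 exon bases with Ndfip, a gene on the same strand, so part of its reads could have been assigned to either, and Ndfip was level at 40.2 ± 7.04 and 41.3 ± 3.70 CPM (SD, n = 3 each).

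The spi transcripts differ in their 5′ ends and all 5 encode 234 amino acids. spi-RE, from the inner start site, took 40.8% to 64.2% of the counts in controls and 46.8% to 65.8% after NF-YA RNAi. spi-RF, from the outermost start site, took 27.9% to 47.3% and 24.9% to 40.3%. The groups overlapped for both, so the choice of start site did not separate them either.

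Levels of different genes were compared in TPM, a level scaled by transcript length and by library. spi stayed the most abundant of the ligand transcripts in both groups, at 121 ± 14.7 TPM in controls and 136 ± 22.6 TPM after NF-YA RNAi (SD, n = 3 each). Krn was at 8.45 ± 1.29 and 8.28 ± 0.63 TPM. vn was the scarcest of the ligands in controls, at 0.93 ± 0.49 TPM, and reached 13.4 ± 2.11 TPM after NF-YA RNAi, above Krn in every RNAi library. Accordingly, vn made up 0.26%, 1.08% and 0.89% of the summed TPM of the ligand genes in control libraries 1, 2 and 3, and 11.7%, 7.65% and 6.88% in RNAi libraries 2, 4 and 5. The summed ligand TPM itself overlapped between the groups, at 130 ± 15.2 and 158 ± 21.1.

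The protease gene rho (rhomboid, FBgn0004635, chromosome 3L, 1463811 to 1468944, plus strand), whose product cleaves Spi and Krn, did not separate the groups. It had 496, 705 and 605 normalized counts in controls and 704, 545 and 1012 after NF-YA RNAi. RNAi library 5 was the highest and control library 1 the lowest, with overlap between them and a log2 fold change of 0.32 (SE 0.26). rho lies within the span of Ptp61F, a phosphatase gene on the opposite strand, with no shared exon base. The other genes of ligand processing and trafficking gave no call either. Of 7 on the list, 4 were tested, with log2 fold changes from −0.25 (iRhom, rho-5 in the annotation, an inactive relative of the rhomboids) to 0.93 (stet, a rhomboid protease). stet was scarce, at 0.26 to 0.84 CPM over all libraries, and its value had an SE of 0.85. The trafficking factor gene S and the rhomboid gene rho-4 lay at −0.04 and 0.14. In control libraries S was at 38.5 ± 1.60 TPM and rho-4 at 73.9 ± 6.61 TPM, against 2.01 ± 0.44 TPM for rho (SD, n = 3 each). The ligand gene grk, the rhomboid gene ru and the relative rho-6 were at or under 0.214 CPM in every library and were not tested.

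The receptor gene Egfr (FBgn0003731, chromosome 2R, 21522420 to 21559977, plus strand) was lower after NF-YA RNAi. It had 43318, 34350 and 31220 normalized counts in controls and 20583, 16640 and 14421 in RNAi libraries 2, 4 and 5. The groups did not overlap, and the highest RNAi value was below the lowest control value. The mean fell from 36296 ± 6280 to 17215 ± 3121 (SD, n = 3 each), or 47.4% of control, with a log2 fold change of −1.08 (SE 0.16). It stayed between −1.23 and −0.94 when single libraries were left out and was called in all 6 of these fits. The transcript Egfr-RB, which encodes 1426 amino acids, carried 95.8% to 100% of the counts in every library, so nearly all of the difference lay in this transcript. Egfr-RA, from a start site farther upstream, which encodes 1377 amino acids, took at most 4.16%. In TPM, Egfr was at 47.2 ± 7.12 in controls and 23.7 ± 4.38 after NF-YA RNAi. Of 5 genes that lie in introns of Egfr on the opposite strand, none shared an exon base with it, and the highest of them, CG30287, reached 6.12 CPM.

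Both secreted and intracellular inhibitors were lower. aos (argos, FBgn0004569, chromosome 3L, 16470386 to 16483650, minus strand), which encodes a secreted protein that binds Spi, had 5909, 6856 and 6455 normalized counts in controls. It had 4294, 3026 and 2229 after NF-YA RNAi, so that the groups did not overlap and RNAi library 5 was the lowest. The mean was 6407 ± 475 in controls and 3183 ± 1041 after NF-YA RNAi (SD, n = 3 each), or 49.7% of control, with a log2 fold change of −1.01 (SE 0.21). Without RNAi library 4 the log2 fold change of aos was −0.98 and no longer passed the threshold. aos has 1 annotated transcript and lies within the span of CG33158 on the opposite strand, with no shared exon base.

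sty (sprouty, FBgn0014388, chromosome 3L, 3401153 to 3424935, minus strand), which encodes an intracellular inhibitor of Ras signalling downstream of receptor tyrosine kinases, was among the most abundant members by TPM. It had 53829, 44938 and 42675 normalized counts in controls and 30816, 25225 and 26298 after NF-YA RNAi. No value overlapped between the groups, and control library 1 was the highest. The mean fell to 58.2% of control, with a log2 fold change of −0.77 (SE 0.11) that was called in all 6 fits without a library. Its 2 transcripts both encode 589 amino acids. sty-RB fell from 346 ± 48.6 to 194 ± 32.3 CPM in means with no overlap between the groups, while sty-RC, from the outer start site, overlapped at 99.9 ± 26.4 and 67.2 ± 11.2 CPM (SD, n = 3 each).

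kek1 (kekkon1, FBgn0015399, chromosome 2L, 12817000 to 12822787, minus strand), which encodes a transmembrane inhibitor that binds the receptor, was the scarcest member by mean TPM in both groups. It had 302, 213 and 189 normalized counts in controls and 188, 164 and 220 after NF-YA RNAi. The groups overlapped, and the log2 fold change of −0.26 had an SE of 0.39, so a change the size of that of sty could have been missed.

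The transcription factor genes had smaller log2 fold changes than Egfr. pnt (pointed, FBgn0003118, chromosome 3R, 23290231 to 23346167, minus strand), the ETS activator of the pathway, had 8812, 6000 and 5976 normalized counts in controls. It had 5943, 4950 and 5604 after NF-YA RNAi, just below the control range. Control library 1 stood above the other libraries, and the log2 fold change of −0.39 (SE 0.16) was not called. cic (capicua, FBgn0262582, chromosome 3R, 20252770 to 20303942, plus strand), an HMG-box repressor of pathway targets, had 86777, 70009 and 58847 normalized counts in controls and 53453, 45348 and 48590 after NF-YA RNAi. The groups did not overlap, although control library 3 lay close to RNAi library 2. Its log2 fold change was −0.56 (SE 0.14), and this call was lost in 4 of 6 fits without a library, with values of −0.40 without control library 1, −0.57 without control library 2, −0.50 without RNAi library 4 and −0.52 without RNAi library 5.

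Transcript shares, which were not used to choose the members, separated the groups for pnt. pnt-RB starts farthest upstream and encodes 718 amino acids, pnt-RD starts between the others and encodes 636, and pnt-RC starts at the innermost site and encodes 623. pnt-RB took 31.2%, 28.8% and 31.6% of the gene's estimated counts in controls. After NF-YA RNAi it took 15.1%, 21.0% and 16.5%, with every value below the control range. pnt-RC moved the other way, from 23.2%, 15.8% and 12.4% to 32.9%, 33.4% and 24.4%. Its lowest RNAi share was only just above its highest control share. In shares of TPM the groups overlapped for pnt-RC, with control library 1 and RNAi library 5 both at 24.5%. pnt-RD, the most abundant, took 45.6% to 55.7% in controls and 42.1% to 59.1% after NF-YA RNAi, so its shares overlapped.

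In CPM, pnt-RB was at 20.5 ± 5.38 in controls and 8.90 ± 0.88 after NF-YA RNAi with no overlap, whereas pnt-RC overlapped at 12.0 ± 6.80 and 15.5 ± 2.82 (SD, n = 3 each). pnt-RD was also lower in CPM with no overlap, at 34.2 ± 4.09 and 25.9 ± 5.40 (SD, n = 3 each). Its highest RNAi value, 30.3 CPM, was close to its lowest control value, 31.5 CPM. The total of pnt therefore held a lower pnt-RB and pnt-RD beside a pnt-RC that was not lower. Among 14 transcripts of the members with a mean share of 10% to 90%, pnt-RB and pnt-RC had shares of counts that did not overlap. This compares with 11.4% of 7515 such transcripts of all genes tested. The count of 2 in 14 is close to that share, so it is not read as particular to the members. With 3 libraries a group an exact permutation test could not go below p = 0.1, and the shares are Salmon estimates that divide reads common to several transcripts. The transcripts of cic kept similar shares, the long cic-RD at 48.7% to 58.2% and the short cic-RH at 29.8% to 34.5% over all 6 libraries.

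**Figure D3:**
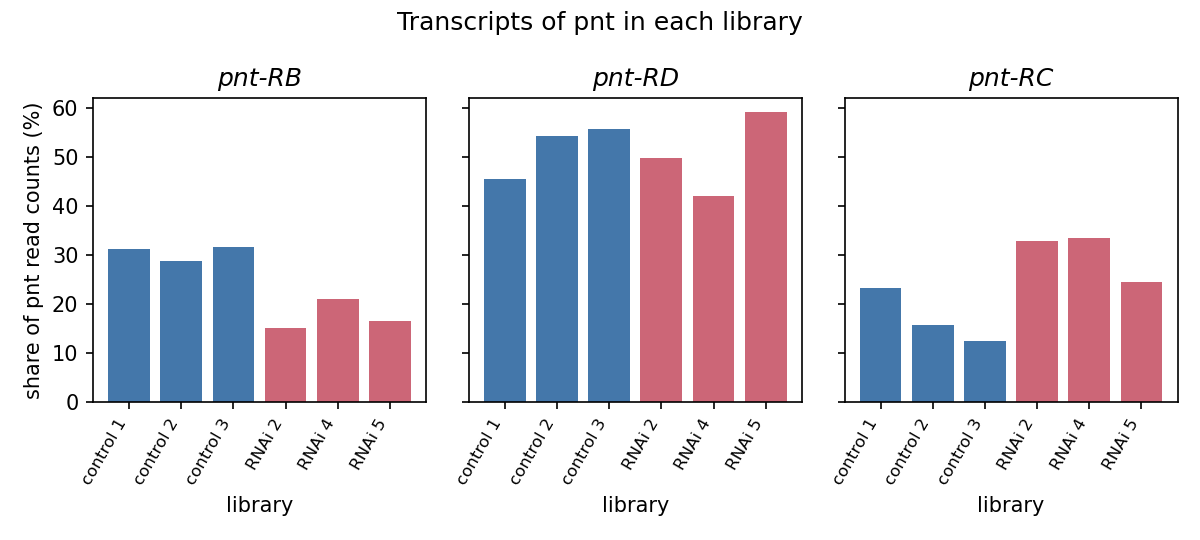
Share of the estimated read counts of pnt (y axis, %) taken by pnt-RB, pnt-RD and pnt-RC in each of the 3 control libraries (blue) and 3 RNAi libraries (red). The pnt-RB bars are 28.8% to 31.6% in controls and 15.1% to 21.0% after NF-YA RNAi, those of pnt-RC are higher after NF-YA RNAi, and those of pnt-RD overlap.

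Whether the receptor, the targets and the feedback genes followed vn was read from the same libraries. Between the groups these members did not: vn was higher, while Egfr, aos, sty and cic were lower and pnt and kek1 did not pass. Of the genes listed below as Capicua targets and midgut ETS factors, CycE and Ets21C were called higher, at 1.04 and 0.40. On that list stg and ttk, at −0.01 and −0.17, did not pass. Within the RNAi group, library 2 had the highest vn count and also the highest counts of Egfr, aos, sty, pnt and cic, and library 5 had the lowest vn, Egfr and aos. In the controls, library 1 had the lowest vn count but the highest counts of Egfr, sty, pnt, cic, kek1, spi and Krn. aos and rho instead ran in the order of vn there, lowest in library 1 and highest in library 2. With 3 libraries a group these orders are a description only. The enterocyte markers, 16 of 18 with a negative log2 fold change, had their highest sum in control library 1 and, among RNAi libraries, in library 2. The progenitor markers, all 8 with a negative log2 fold change, also had their highest sum in control library 1. The part of either list in these differences was not tested.

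By TPM the members kept most of their order. In controls it ran from spi (121 TPM), sty (112) and cic (87.9) through Egfr (47.2), aos (19.0), pnt (18.5), Krn (8.45) and rho (2.01) to vn (0.93) and kek1 (0.44). The ranges over 3 libraries overlapped between spi and sty, sty and cic, aos and pnt, and vn and kek1. After NF-YA RNAi vn moved from ninth to sixth, between pnt (15.5 TPM) and aos (9.92 TPM), and its range overlapped with those of both. spi then stood apart from sty, which was at 68.6 TPM.

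The rest of the pathway was examined as a list of 37 genes, of which 34 were tested. The list was drawn up with earlier results of these data known. Its counts, and the roles of the genes that rose or fell, are therefore a description from which nothing is read. On this list 4 genes rose and 5 fell, where 6.19% and 8.02% of all genes did, and its median log2 fold change was −0.16. The count of 9 dropped to 3 and 4 when control library 1 or 2 was left out, and to 3 when RNAi library 4 or 5 was. Adjusted p-values given for this list are from edgeR over all 9080 genes.

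Genes that restrain the pathway made up all 5 that fell. Of 10 negative regulators, all tested, 9 had a negative log2 fold change. Mkp3, a phosphatase that inactivates rl, had 16474, 15565 and 14310 normalized counts in controls and 10213, 8121 and 10004 after NF-YA RNAi. It fell by 0.72 on the log2 scale (SE 0.11, adjusted p = 0.0044) and was called in all 6 fits without a library. ed (echinoid), a cell adhesion gene that antagonizes the pathway in the eye, went from 19990, 16383 and 13919 to 10501, 10205 and 9810 normalized counts. It fell by 0.72 (SE 0.13, adjusted p = 0.0071) and also kept its call in all 6 fits.

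Cbl, a ubiquitin ligase that promotes receptor turnover, fell by 0.60 (SE 0.14, adjusted p = 0.021). aop (anterior open), an ETS repressor inactivated by rl, fell by 0.49 (SE 0.13, adjusted p = 0.036), and lbk (lambik), which encodes a leucine-rich repeat protein, fell by 0.47 (SE 0.13, adjusted p = 0.043). These calls were less stable and held in 3, 2 and 1 of the 6 fits without a library. The remaining negative regulators RasGAP1, Nf1, Spred and kek2 lay between −0.61 and −0.24 and did not pass. edl (ETS-domain lacking), whose product binds Pnt and Aop and limits their activity, was the exception. Since Aop is a repressor, its place among the negative regulators holds for its action on Pnt only. edl rose from 2548, 3103 and 3142 to 4454, 3813 and 4234 normalized counts, a log2 fold change of 0.50 (SE 0.13, adjusted p = 0.029), and held its call in 1 of the 6 fits.

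Of 16 adaptor, Ras and MAPK cascade genes, 13 had a negative log2 fold change and 15 did not pass, with log2 fold changes from −0.69 (ave) to 0.12 (14-3-3zeta). Ras85D, the Ras gene of the pathway, had a value of −0.16, Dsor1, the MAP kinase kinase, −0.10 and rl −0.36. 14-3-3epsilon, whose product binds phosphorylated cascade proteins, rose by 0.26 (SE 0.08, adjusted p = 0.049), a call that held in none of the 6 fits without a library. Among the genes listed as Capicua targets and midgut ETS factors, 2 of 4 rose. CycE, the cyclin of S-phase entry, went from 720, 896 and 925 normalized counts to 1388, 1465 and 2309, a log2 fold change of 1.04 (SE 0.22, adjusted p = 0.015). Ets21C, an ETS factor of the stress response, rose by 0.40 (SE 0.09, adjusted p = 0.020). The call of CycE was lost without control library 1, and that of Ets21C without control library 1, RNAi library 4 or RNAi library 5. On the same list stg, the Cdc25 phosphatase gene, was at −0.01 and did not pass.

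**Figure D4:**
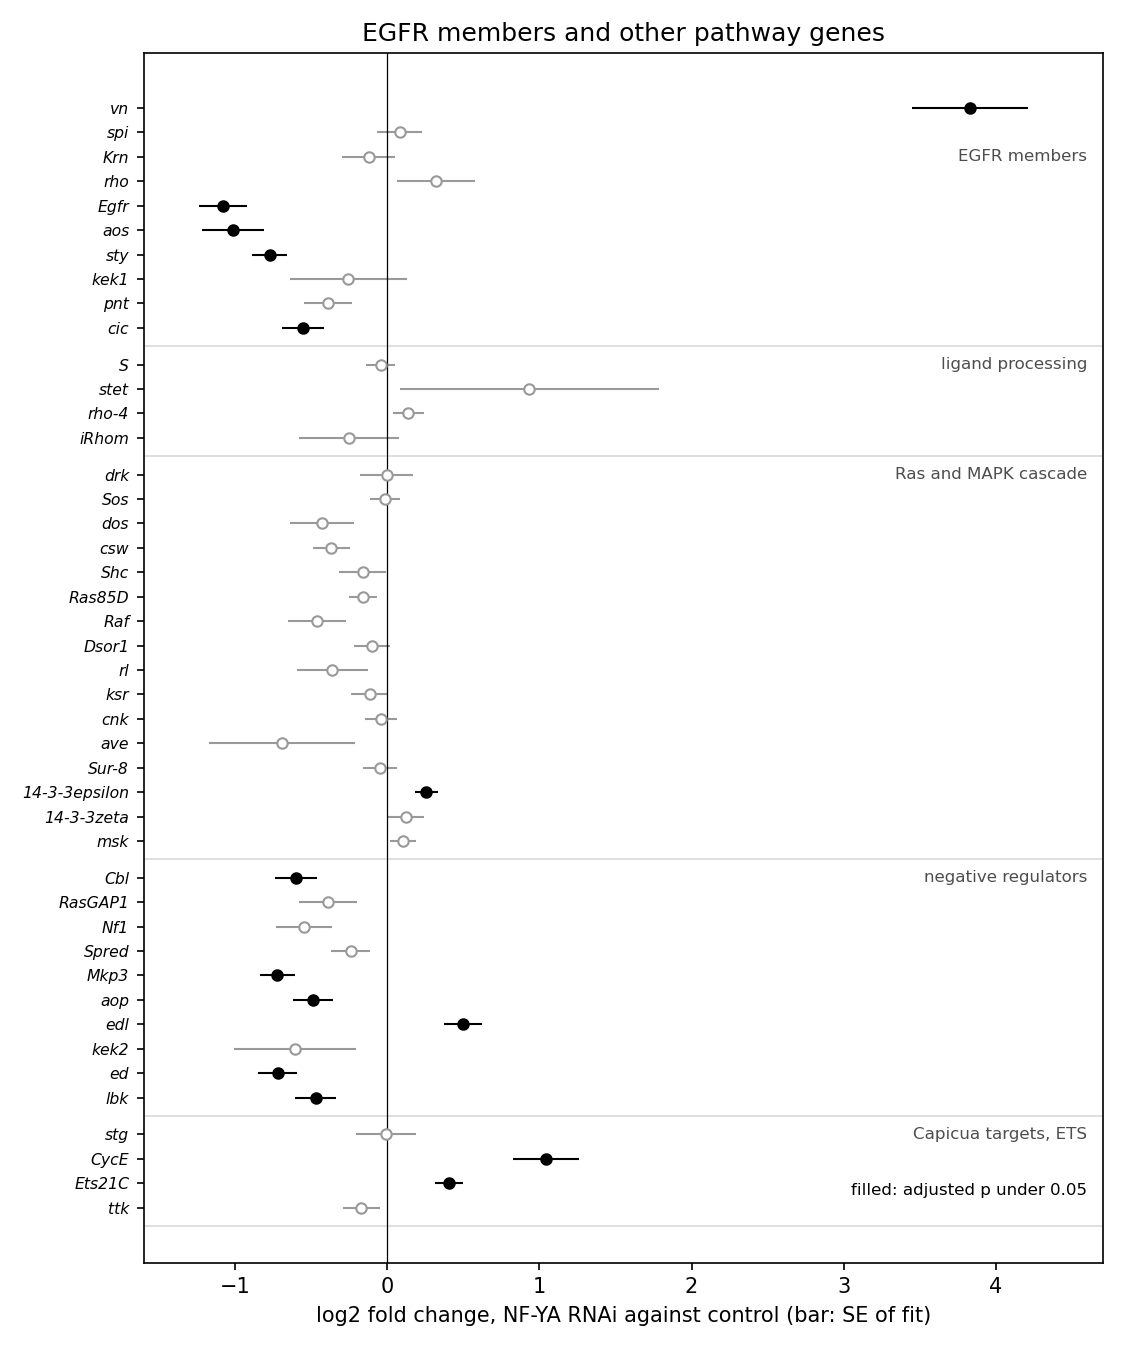
Log2 fold change of NF-YA RNAi against control (x axis, bar: SE of the fit) of the 10 members and of 34 other pathway genes grouped by role (y axis), with filled points for an adjusted p under 0.05. vn lies at 3.83, Egfr and aos near −1, and 5 of the 10 negative regulators are filled on the left with edl on the right.

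The genes whose log2 CPM followed vn most closely over the 6 libraries were Non3 (Pearson r = 0.997), CG3635 (0.996), MetRS (0.995), Fmo-2 (0.994) and CG9231 (0.993). Of 9079 genes, 559 had an r above 0.9, since with 6 libraries such an r mainly records the difference between the groups. Their changes were far smaller than that of vn, except for CG3635, which was at 0 to 0.067 CPM in controls and 1.2 to 1.5 CPM after NF-YA RNAi. Non3 went from 30.7, 36.7 and 35.3 CPM to 50.5, 50.7 and 47.6 CPM, and Fmo-2 from 39.0, 48.1 and 50.9 CPM to 96.4, 87.7 and 91.8 CPM. In each of these genes, as in vn, control library 1 was the lowest.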

How the data were processed

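RNA of sorted cells was sequenced on AVITI as paired reads of 75 bp. The authors used nf-core/rnaseq 3.18.0 with Trim Galore 0.6.10, STAR 2.7.11b (FlyBase release 6.62) and Salmon 1.10.3, although the submitters' processing notes name other tools. The authors deposited Salmon's estimated counts and TPM for 34989 transcripts. They also deposited a table of 8470 genes whose signal values, called normalized counts here, are gene counts divided by the authors' normalization factors. Its columns of fold changes and p-values were not used. The strand setting is not given in the sources used here.

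Estimated counts were summed per gene (BDGP6.54, Ensembl release 115; 44 transcripts with no gene, 0.21% to 0.35% of counts, were left out), rounded, filtered with filterByExpr, scaled by TMM and compared with edgeR 4.0.16 (R 4.3.3, quasi-likelihood test, prior count 0.125, Benjamini-Hochberg adjustment). Fold changes come from this fit, per-library values from the normalized counts, and CPM from TMM. Correlations used log2 CPM with a prior count of 2. Alternatives used DESeq2 1.42.0, limma 3.58.1 and single libraries left out. The code was tested on simulated counts. The members and lists were chosen with earlier results of these data known. Members, called list genes, overlapping genes, the NF-Y subunits, the leading markers and the 5 genes most like vn are named by rule, and other list genes, vn neighbours and further markers were named after their values were seen. Promoter sequences were not analysed here. Drawing used Python 3.11.15 and matplotlib 3.10.9.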

Additional observations from a re-analysis of the deposited data

How the results depend on the processing

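Over 13 alternatives (DESeq2 size factors or test, library size scaling, no filter, limma with a pseudocount of 1 or 10, a replicate block, and each library left out), vn, Egfr and sty kept their direction and their call in all 13, aos in 12 and cic in 9. rho, pnt and kek1 kept their direction and were called in none. spi turned to −0.032 with the replicate block and −0.012 without RNAi library 4, and Krn to 0.014 without control library 1, none of them called, and with single libraries left out spi ranged up to 0.214 and Krn down to −0.257. With single libraries left out, 3 to 5 members, 3 to 9 other pathway genes and 506 to 1243 of all genes were called. The titles give both groups the numbers 1 and 2, and the deviations of these pairs correlated at 0.051 and −0.020. Whether samples of the same number were handled together cannot be told from these values. With the replicate block, 787 genes, 5 members and 2 other pathway genes were called, and there control library 3 and RNAi library 5 have no partner and do not bear on the difference. By Spearman's rho, 195 genes in place of 559 lay above 0.9 with vn, a measure that takes few values over 6 libraries. The lower share of pnt-RB was −13.0 percentage points in counts and −10.2 in TPM. The shares of pnt-RC, separate in counts, overlapped between the groups in TPM. A count of CCAAT letters in promoters was not run. Levels of kek1, and of vn in controls, were low, each at a mean under 1 TPM.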
